A study of Mus musculus with 6 samples.

Results

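The core circadian clock genes were examined in RNA sequencing of quadriceps muscle from control mice and from miDrp1KO mice, in which *Dnm1l* (the gene for the mitochondrial fission protein Drp1) is deleted in skeletal muscle. The members were taken by symbol: *Arntl*, *Clock*, *Npas2*, *Per1*, *Per2*, *Per3*, *Cry1*, *Cry2*, *Nr1d1* and *Nr1d2*. These are 10 of the 27179 genes listed in the count tables, and all 10 were among the 16483 genes with enough counts to be tested. There were 3 control libraries, called B, C and D after their library names, and 3 miDrp1KO libraries, called A, E and F.

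In the miDrp1KO mice, floxed *Dnm1l* was recombined by HSA-MerCreMer, a tamoxifen-activated Cre under the human skeletal actin promoter, which leaves the gene in cells other than muscle fibres. All 3 control libraries are labelled f/f, for floxed *Dnm1l*. Both groups received tamoxifen at 3 months of age (4 daily doses of 50 mg/kg), ate normal chow, and were housed in 12 hours of light and 12 hours of dark. Muscle was taken 3 weeks after the deletion, and a fast of 6 hours is described for mice of this study. The time of day at which each muscle was collected is not given in the sources used here, so a difference in clock time between mice cannot be told apart from a difference in clock gene expression. Nothing in the labels says outright that each library is a separate animal, and p-values measure the spread between these libraries.

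The clock is a feedback loop that runs in nearly every cell, muscle fibres included. Arntl (also called Bmal1) pairs with Clock or with Npas2 and switches on genes that carry an E-box, among them the Per, Cry and Nr1d genes. The Per and Cry proteins return to the nucleus and block that pair, while the Nr1d proteins (REV-ERB alpha and beta) compete with ROR factors at ROR elements and repress *Arntl*, so that over a day *Arntl* peaks when the Per and Nr1d genes are near their trough.

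The genes lie apart in the genome. In RefSeq's GRCm38.p6 annotation *Arntl* spans chr7:113178471-113314126, *Clock* chr5:76209868-76305603 and *Npas2* chr1:39193702-39363240. *Per1* spans chr11:69095108-69109965, *Per2* chr1:91415977-91459351 and *Per3* chr4:150997018-151044707. *Cry1* spans chr10:85131700-85185054 and *Cry2* chr2:92403646-92434085, while *Nr1d1* spans chr11:98767932-98775377 and *Nr1d2* chr14:18204056-18239106.

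E-boxes, ROR elements and other clock elements can be found in the promoters of some members. RefSeq start sites (GRCm38.p6) gave a window of 250 bases before to 50 bases after the start for 9 of the 10 members, 13 windows in all, with no entry for *Per2*. Both strands were searched, and 4 stretches are printed here because they hold matches to E-boxes, a ROR element or D-boxes; capitals mark the matches.

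*Arntl*, chr7:113207529-113207557, plus strand: gaaggcagaaAGTAGGTCAgggacggagg
*Per1*, chr11:69098763-69098808, plus strand: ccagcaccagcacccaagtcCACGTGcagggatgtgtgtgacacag
*Cry1*, chr10:85185089-85185153, minus strand: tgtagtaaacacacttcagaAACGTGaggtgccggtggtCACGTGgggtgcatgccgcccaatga
*Per3*, chr4:151044796-151044890, minus strand: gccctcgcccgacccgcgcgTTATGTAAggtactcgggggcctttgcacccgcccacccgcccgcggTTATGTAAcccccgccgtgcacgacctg

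The *Arntl* stretch holds a ROR element (searched as ANTAGGTCA or ANTGGGTCA, which 1.45% of the 32851 RefSeq promoter windows hold), whose first base lies 29 bases after the start. *Per1* has an E-box (CACGTG, in 7.15% of windows) at position -166 from the start. *Cry1* has an E-box at -60 and, on the other strand, an E-box-like match (CACGTT, in 4.68% of windows) at -79. *Per3* has 2 matches to the D-box (TTATGTAA or TTACGTAA, in 1.06% of windows), the element read by Dbp, Tef and Hlf. *Cry2* and *Nr1d1* each hold 1 E-box-like match, and no member's window holds the cAMP response element TGACGTCA, which 1.79% of windows hold. In all, 6 members have a match, which says only that these letters occur in these windows.

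Libraries held 13989588 (C) to 62042255 (D) counts. Levels are given as CPM (a gene's counts scaled to its library's total, after TMM scaling, computed here), in the order B, C, D for control and A, E, F for miDrp1KO. Ribosomal RNA genes took 3.36% to 15.6% of the counts in control and 1.47% to 24.4% in miDrp1KO. Skeletal muscle markers summed to 236955 to 293997 CPM in control and 112615 to 222995 CPM in miDrp1KO, with none of the 10 at 0. *Dnm1l* itself was at 156, 114 and 140 CPM in control and at 70.6, 81.3 and 66.2 CPM in miDrp1KO, every miDrp1KO library lying below every control library. Its log2 fold change was -0.91 (SE 0.18), and its adjusted p was 0.362 by edgeR's quasi-likelihood test and 0.00382 by DESeq2.

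None of the 10 clock genes differed between miDrp1KO and control quadriceps at an adjusted p under 0.05 (edgeR quasi-likelihood test, Benjamini-Hochberg adjustment over all tested genes), nor in limma voom or among the 5 members to which DESeq2 gave an adjusted p, and in none did the 3 miDrp1KO libraries lie entirely above or below the 3 control libraries. Of all tested genes, 0.0121% passed that threshold and 18% had groups that did not overlap. At an unadjusted p under 0.05 the count of members was again 0 in edgeR, against 10.9% of all tested genes, while 1 member was under that value in DESeq2 (10.4% of tested genes), 2 in limma voom (12.5%) and 2 in edgeR with no filter on low counts (9.4%). The member under that value in DESeq2 was *Cry2* (unadjusted p 0.0377), to which DESeq2 gave no adjusted p. The fitted changes ran from -0.61 (*Cry2*) to 0.43 (*Npas2*) on the log2 scale: 8 members were lower and 2 higher in miDrp1KO (7 lower under upper quartile scaling, where *Per1* was at 0.0076, and 5 lower without library F), their median log2 fold change being -0.11 (-0.02 under upper quartile scaling) and that over all tested genes 0.02 (0.11 under that scaling). The 95% intervals of all 10 include 0, which does not show that the levels were alike.

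**Figure D1:**
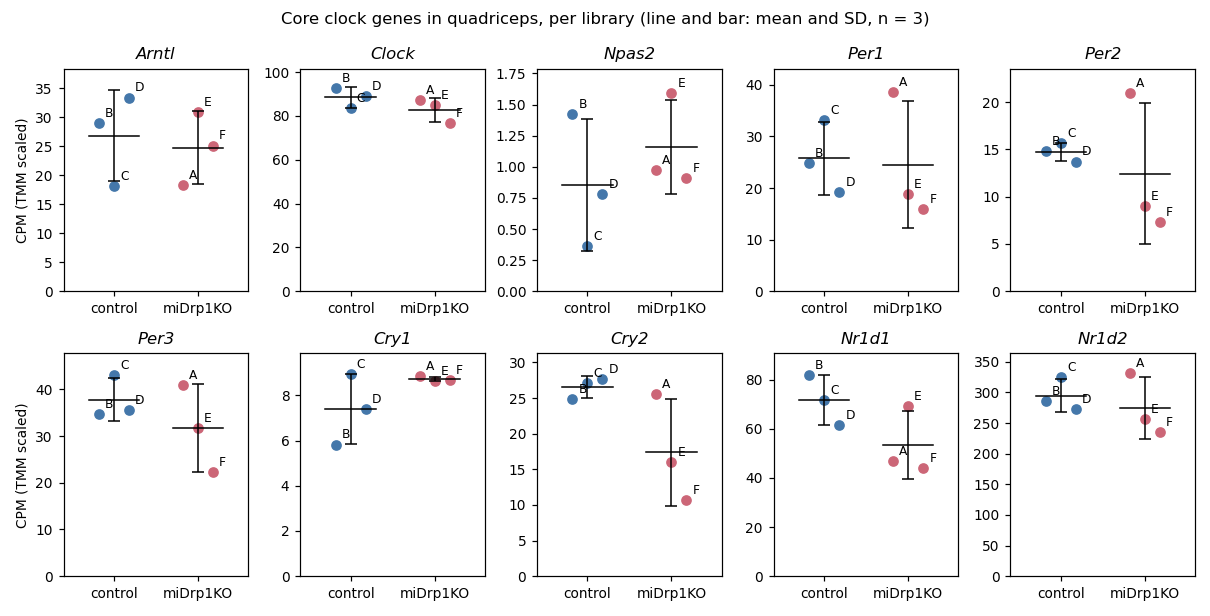
Level of each core clock gene (CPM, vertical axis from 0) in each library, with the library letter, for control (blue) and miDrp1KO (red). Lines and bars are the mean and SD of 3 libraries. In all 10 panels the groups overlap, and the miDrp1KO points of *Per1*, *Per2* and *Cry2* are spread between a high library A and low libraries E and F.

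None of the 3 activators was called. *Arntl*, the obligate partner without which the loop stops, was at 29.0, 18.1 and 33.4 CPM in control and at 18.3, 30.8 and 25.1 CPM in miDrp1KO. The lowest library of either group, C and A, stood at nearly the same level, and the groups overlapped over most of their range. The log2 fold change was -0.12 (SE 0.25, 95% interval -0.68 to 0.44). *Clock*, the partner with histone acetyltransferase activity, was the steadiest member, at 92.9, 83.5 and 89.2 CPM in control and 87.1, 84.9 and 76.7 CPM in miDrp1KO. Its highest library exceeded its lowest by 1.21 times, and only 2.46% of tested genes varied less. Its log2 fold change was -0.10 (SE 0.16, 95% interval -0.44 to 0.25), the narrowest interval among the members. *Npas2*, a paralogue that can stand in for Clock, was barely detected, with 5 to 65 counts per library. It was at 1.42, 0.364 and 0.783 CPM in control and 0.972, 1.59 and 0.912 CPM in miDrp1KO. Its log2 fold change of 0.43 (SE 0.49) had the widest interval, -0.64 to 1.5, so that only a large difference could have been resolved. With 1 library left out the change ran from 0.107 (without E) to 0.942 (without B).

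The Per genes, whose proteins carry the repressive complex and whose transcripts also respond to hormones and other acute cues, overlapped widely between the groups. *Per1* was at 24.9, 33.2 and 19.2 CPM in control and at 38.6, 18.9 and 16.0 CPM in miDrp1KO, so that library A was the highest and E and F the lowest of all 6. *Per2* had the same order of miDrp1KO libraries around a tight control group, with 14.8, 15.7 and 13.7 CPM in control and 21.0, 9.0 and 7.34 CPM in miDrp1KO. Its SD was 0.983 CPM in control and 7.45 CPM in miDrp1KO, on means of 14.7 and 12.4 CPM; the difference between these spreads was not tested. *Per3*, the member of the family that the loop can run without, was at 34.7, 43.1 and 35.6 CPM in control and 41.0, 31.8 and 22.3 CPM in miDrp1KO. The log2 fold changes were -0.07 (SE 0.37) for *Per1*, -0.25 (SE 0.38) for *Per2* and -0.25 (SE 0.21) for *Per3*, with adjusted p of 0.964, 0.848 and 0.696 by edgeR.

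The cryptochromes, the partners of the Per proteins that carry most of the repression, had fitted changes of opposite sign. *Cry1* was at 5.82, 8.96 and 7.41 CPM in control and at 8.85, 8.65 and 8.69 CPM in miDrp1KO, a log2 fold change of 0.24 (SE 0.20, 95% interval -0.19 to 0.68). That change was 0.119 without library B and 0.37 without library C. Control library C lay above all 3 miDrp1KO libraries. *Cry2* was at 24.8, 27.1 and 27.7 CPM in control and at 25.5, 16.0 and 10.7 CPM in miDrp1KO. Libraries E and F lay well below the control range and A inside it. With a log2 fold change of -0.61 (SE 0.27, 95% interval -1.22 to 0.0015) it came nearest to a call among the members, with an unadjusted p of 0.0504 and an adjusted p of 0.459 by edgeR. *Cry2* shares 295 bases of exon, 4.67% of its exon length, with D930015M05Rik on the opposite strand.

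The REV-ERB genes, the repressors of *Arntl*, were both lower in the fit and not called. *Nr1d1* was at 81.8, 71.8 and 61.5 CPM in control and at 46.9, 69.1 and 44.1 CPM in miDrp1KO. Libraries A and F were below all of control, and E was within its range. Its log2 fold change was -0.42 (SE 0.20, 95% interval -0.87 to 0.03; adjusted p 0.483 by edgeR). *Nr1d1* shares 263 bases of exon, 8.55% of its exon length, with *Thra* (a thyroid hormone receptor gene) on the opposite strand, and the strand setting of the read counting is not given in the sources used here. *Thra* was at 40.5, 40.0 and 38.7 CPM in control and at 37.6, 34.1 and 32.2 CPM in miDrp1KO, with a log2 fold change of -0.20 (SE 0.15) and an adjusted p of 0.643 by edgeR; the part of shared reads in either value was not tested. *Nr1d2* was at 286, 325 and 273 CPM in control and at 331, 257 and 235 CPM in miDrp1KO, a log2 fold change of -0.10 (SE 0.20). Here A was the highest library of all, unlike in *Nr1d1*.

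Per kilobase of exon (GENCODE vM21 lengths), the order of the mean levels in control was *Nr1d2* at 54.5, *Nr1d1* at 23.3, *Clock* at 6.45, *Per1* at 4.58, *Cry2* at 4.20, *Per3* at 3.94, *Arntl* at 3.56, *Per2* at 2.52, *Cry1* at 2.22 and *Npas2* at 0.179 CPM per kb. The REV-ERB genes at the top and *Npas2* at the bottom stood clear of their neighbours in this order in every library. From *Clock* down to *Cry1* the ranges over the 6 libraries overlapped between each gene and the next, and *Arntl*, from 2.4 to 4.44 CPM per kb, spanned the means of *Per2* to *Cry2*. In miDrp1KO the same 3 genes led, at 50.7, 17.3 and 6.04 CPM per kb, and *Npas2* was again the lowest at 0.242. These are levels in whole muscle, in which fewer cells of a type and less RNA per cell cannot be told apart.

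**Figure D2:**
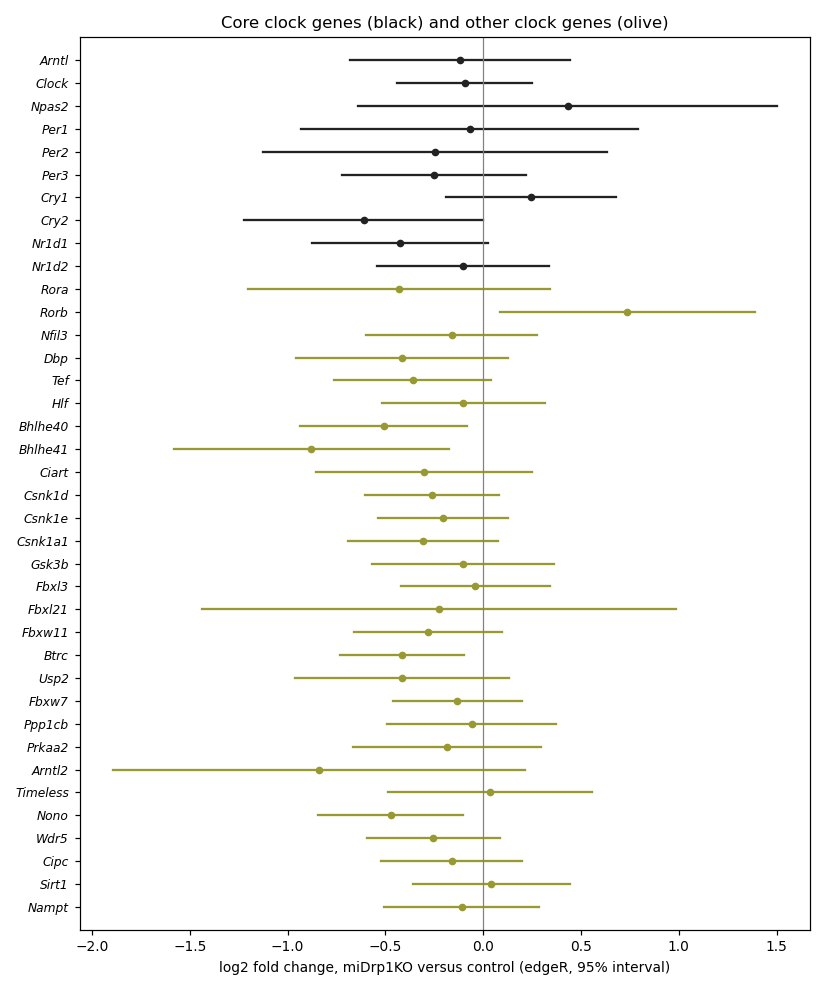
Log2 fold change of miDrp1KO against control (edgeR) with its 95% interval (horizontal axis) for the 10 core clock genes (black) and 28 further clock genes (olive). All 10 black intervals reach 0; 4 olive intervals lie wholly below 0 (*Btrc*, *Nono*, *Bhlhe40*, *Bhlhe41*) and 1 wholly above (*Rorb*), none with an adjusted p under 0.05.

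The comparison depended on single libraries. With miDrp1KO library A left out, 4 of the 10 members had an unadjusted p under 0.05 in edgeR, against 17.5% of the genes tested in that fit. All 4 were lower in miDrp1KO: *Cry2* at a log2 fold change of -0.96, *Per2* at -0.82, *Per1* at -0.53 and *Per3* at -0.46. None passed the adjusted threshold, with adjusted p of 0.0756 for *Cry2* and 0.0883 for *Per2* by edgeR's quasi-likelihood test. With library F left out instead, *Per1* and *Per2* turned to log2 fold changes of 0.18 and 0.04, *Per3* stayed below 0 at -0.03, and *Cry2* was at -0.34. The direction of *Per1* and *Per2* in miDrp1KO thus depended on which library was included, while *Per3* was below 0 with any 1 library left out. For *Nr1d1* without library E, the log2 fold change was -0.65, with an unadjusted p of 0.00682 and an adjusted p of 0.694 by edgeR, and without F it was -0.28. The median over the members was -0.28 without A and -0.003 without F.

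The phase relation of the loop was read within each library. In C, a control, and in A, a miDrp1KO, *Arntl* was lowest (18.1 and 18.3 CPM, against 25.1 to 33.4 CPM in the other 4 libraries), while *Per1*, *Per2*, *Per3* and *Nr1d2* each had their highest values in these same libraries. *Per1*, for example, was at 33.2 CPM in C and 38.6 CPM in A, against 16.0 to 24.9 CPM elsewhere. Low *Arntl* with high Per genes and high *Nr1d2* thus occurred in 1 library of each group. The arm difference, the mean log2 CPM of the 5 Per and Nr1d genes minus that of *Arntl* and *Npas2*, was 2.92, 4.31 and 3.03 in control and 3.66, 2.47 and 2.63 in miDrp1KO. Its mean was 3.42 ± 0.77 in control and 2.92 ± 0.65 in miDrp1KO (SD, n = 3), and the groups overlapped. Against *Arntl* alone, an alternative added after the data were seen because *Npas2* had few counts, the arm difference was 0.93 ± 0.63 in control and 0.75 ± 0.73 in miDrp1KO (SD, n = 3), so that the difference between the groups went from -0.50 to -0.18.

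**Figure D3:**
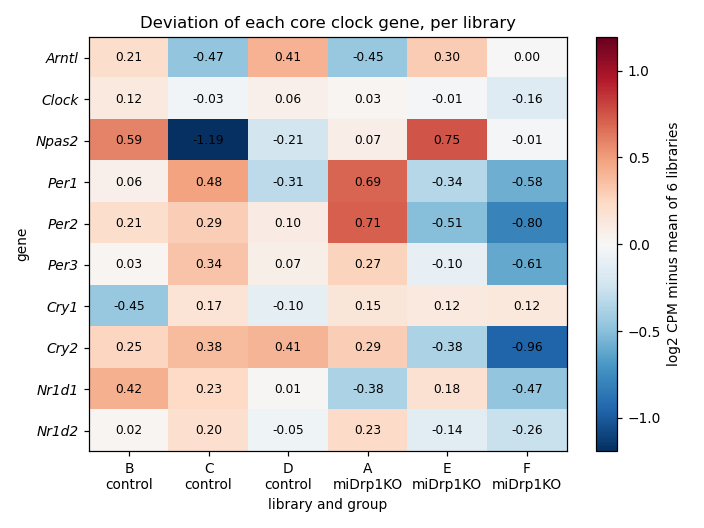
Log2 CPM of each core clock gene (rows) in each library (columns) minus its mean over the 6 libraries; red is higher and blue lower. In libraries C and A *Arntl* is at -0.47 and -0.45 while the 3 Per genes and *Nr1d2* are above 0, and in library F all members but *Arntl* and *Cry1* are below 0.

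Not every member kept to this. *Nr1d1*, which belongs to the same arm as *Nr1d2*, was above its mean in C (by 0.23 on the log2 scale) and below it in A (-0.38). *Cry2* was high in C and A but as high in D, where *Arntl* was at its own highest. In F, *Clock*, *Per1*, *Per2*, *Per3*, *Cry2*, *Nr1d1* and *Nr1d2* were each at their lowest of the 6 libraries, yet *Arntl* was at its mean there and not high. Relative to *Arntl*, *Nr1d1* and *Per2* were each higher in A, B and C than in D, E and F, with C the highest for *Nr1d1* and A for *Per2*. *Nr1d1* minus *Arntl* was 1.49, 1.99 and 0.88 in control and 1.36, 1.16 and 0.81 in miDrp1KO (log2), and *Per2* minus *Arntl* was -0.96, -0.21 and -1.28 in control and 0.20, -1.77 and -1.76 in miDrp1KO.

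Across the 6 libraries the log2 CPM of *Arntl* was compared with each of the 9 other members, with exact permutation tests over the 720 pairings. The relation was most negative with *Per1* (Pearson's r = -0.79, permutation p = 0.0778, adjusted over the 9 pairs 0.552; Spearman's rho = -0.54, permutation p = 0.297) and with *Nr1d2* (r = -0.70, permutation p = 0.139, adjusted 0.552; rho = -0.54, permutation p = 0.297). *Cry1* had the most negative rank relation (rho = -0.83, permutation p = 0.0583, adjusted 0.525; r = -0.54, permutation p = 0.247). The pair partners were positive, with r = 0.28 for *Clock* and 0.60 for *Npas2*, and so was *Nr1d1* at 0.31. These values moved with single libraries: *Nr1d1* was at 0.0019 without A and 0.67 without C, and *Npas2* at 0.20 without C. Without F, r was -0.96 for *Per1*, -0.90 for *Per3* and -0.94 for *Nr1d2*, each with an adjusted permutation p of 0.175. *Cry1* came nearest without B, at r = -0.74 and an adjusted permutation p of 0.075. No pair passed the adjusted threshold with all libraries or with any 1 left out. With a library left out, 0.075 is the lowest adjusted permutation p that a single pair can reach on its own. Those alternatives could therefore hardly pass. Without A and C, the libraries farthest from the *Arntl* median, r over the remaining 4 was 0.37 for *Per1*, 0.64 for *Per2*, 0.89 for *Per3* and 0.66 for *Nr1d2*, so the negative values rest on those libraries; that of *Cry1* was -0.21. Taken as deviations from the group means, r was -0.83 for *Per1* and -0.80 for *Nr1d2*.

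**Figure D4:**
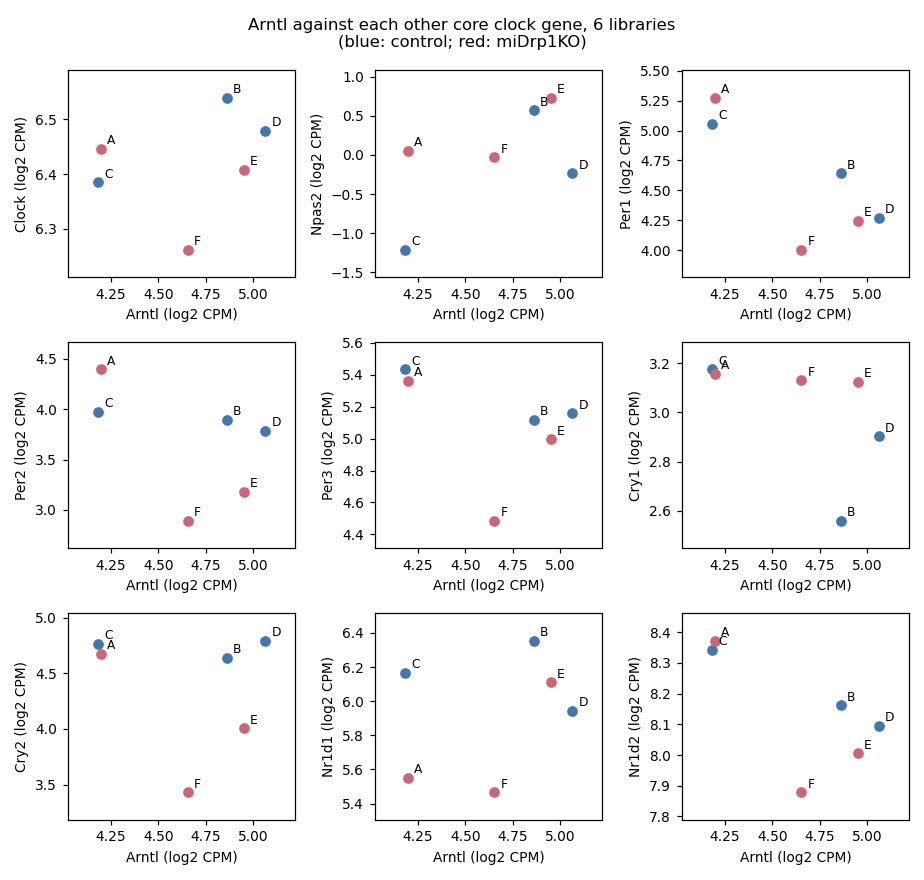
Log2 CPM of *Arntl* (horizontal axis) against each of the 9 other core clock genes (vertical axes), 1 point per library with its letter, control in blue and miDrp1KO in red. Libraries A and C sit at the left in every panel and at the top for *Per1*, *Per2*, *Per3* and *Nr1d2*, whereas A lies near the bottom for *Nr1d1*.

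Other measures were also set apart in C and A. The summed CPM of 8 temperature-responsive genes, chiefly the heat shock cognate *Hspa8*, was 372 in C and 352 in A, against 879 to 1294 in the other libraries. The list did not move as one, since *Rbm3*, a gene induced by cold, was highest in C and A, at 46.0 and 45.3 CPM against 16.0 to 23.9 CPM elsewhere. The 6 endothelial markers, none at 0, summed to 151 CPM in both C and A, against 164 to 271 CPM elsewhere, and the 6 macrophage markers, none at 0, to 139 and 129 CPM against 77.2 to 108 CPM. Both cell types' sums overlapped between the groups (151 to 271 CPM in control and 151 to 241 CPM in miDrp1KO for endothelium; 77.2 to 139 and 104 to 129 CPM for macrophages). Of the 6 macrophage markers, 2 (*C1qa* and *Cd68*) were higher in every miDrp1KO library than in any control library, against 7.67% of all tested genes. *C1qa* was at 14.3, 23.5 and 14.4 CPM in control and 26.2, 28.5 and 26.2 CPM in miDrp1KO. The unadjusted p in edgeR was 0.00948 for *C1qa* and 0.00802 for *C1qb*, and the adjusted p was 0.382 and 0.379. At an unadjusted p under 0.05, 4.68% of all tested genes were higher. The groups overlapped for *C1qb*. *Adgre1* and *Cd163* overlapped between the groups, with log2 fold changes of -0.05 and -0.01. The 10 glucocorticoid-induced genes summed to 1135 CPM in A and 905 CPM in C, against 605 to 845 CPM elsewhere. The part of any of these in the clock gene levels was not tested. Between the groups, the 6 adipose markers, none at 0, summed to 424 to 678 CPM in control and 283 to 406 CPM in miDrp1KO without overlap, and their part was not tested either. Skeletal muscle marker sums were also apart, at 236955 to 293997 CPM in control and 222995, 138848 and 112615 CPM in A, E and F. The 10 markers did not move as one. In the fit 8 were lower and 2 higher in miDrp1KO, *Mb* at a log2 fold change of 0.67 and *Pvalb* at 0.03. Groups did not overlap in 3 of the lower markers, against 10.3% of all tested genes. The part of muscle marker levels was not tested.

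The other genes of the clock were read from lists of 28, all of them tested. None passed the adjusted threshold in edgeR or limma voom, or among the 18 to which DESeq2 gave an adjusted p, and at an unadjusted p under 0.05 in edgeR 4 were lower and 1 was higher in miDrp1KO; 6.22% of all tested genes were lower and 4.68% higher at that level. In the fit 25 of the 28 were lower in miDrp1KO (23 under upper quartile scaling and 21 without library F), with a median log2 fold change of -0.24, where 48.0% of all tested genes were lower. Groups did not overlap in 7 lower genes (*Tef*, *Bhlhe40*, *Bhlhe41*, *Csnk1a1*, *Btrc*, *Nono* and *Wdr5*) and in 1 higher gene, *Rorb*, against 10.3% of all tested genes lower and 7.67% higher without overlap.

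The E-box repressors Bhlhe40 and Bhlhe41 (Dec1 and Dec2), which compete with Arntl and Clock for E-boxes, were lower in each miDrp1KO library than in any control library. *Bhlhe41* was at 48.9, 44.9 and 75.2 CPM in control and at 40.0, 33.8 and 18.4 CPM in miDrp1KO, a log2 fold change of -0.88 (SE 0.31; adjusted p 0.393 by edgeR). *Bhlhe40* was at 107, 127 and 89.3 CPM in control and at 88.7, 74.5 and 63.5 CPM in miDrp1KO, a log2 fold change of -0.51 (SE 0.19; adjusted p 0.405 by edgeR). The gap between the groups was narrow for *Bhlhe40*, where D and A all but met. *Ciart*, the other gene listed as an E-box repressor, had a fitted change of -0.30 with overlapping groups.

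Among the regulators of clock protein stability and the other partners, *Btrc*, a ubiquitin ligase subunit that marks the Per proteins for degradation, had the tightest groups, at 21.5, 22.6 and 21.9 CPM in control and 17.0, 16.5 and 16.1 CPM in miDrp1KO. Its log2 fold change was -0.41 (SE 0.14; adjusted p 0.392 by edgeR). All 12 genes of that list, which also holds kinases and a phosphatase, had a fitted change below 0, with a median of -0.22. *Nono*, an RNA-binding partner of the Per complex, was at 72.7, 55.1 and 69.9 CPM in control and 45.4, 52.4 and 44.7 CPM in miDrp1KO, a log2 fold change of -0.47 (SE 0.17; adjusted p 0.392 by edgeR).

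The D-box factors are direct outputs of the loop. *Tef* was at 173, 202 and 182 CPM in control and 170, 132 and 130 CPM in miDrp1KO, a log2 fold change of -0.36 (SE 0.18; adjusted p 0.507 by edgeR), while *Dbp* was at 30.3, 54.9 and 36.7 CPM in control and 38.9, 24.8 and 27.5 CPM in miDrp1KO, with overlapping groups. *Dbp* was highest in C and A, as *Per3* was. Of the ROR factors, which are known activators of *Arntl*, *Rorb* was at 1.89, 3.28 and 1.67 CPM in control and 3.55, 3.68 and 3.84 CPM in miDrp1KO, a log2 fold change of 0.74 (SE 0.30; adjusted p 0.416 by edgeR), on 40 to 150 counts per library. *Rora* had a fitted change of -0.43 with overlapping groups.

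Tested 1 gene at a time by exact permutation (two-sided, 20 arrangements), the 10 members had p from 0.2 (*Cry2* and *Nr1d1*) to 0.8 (*Arntl*), where the smallest p that 3 against 3 allows is 0.1.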

How the data were processed

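Quadriceps RNA from 3 control and 3 miDrp1KO libraries was made into ribosomal RNA-depleted, stranded total RNA libraries. The authors aligned reads to GRCm38 and counted them with Rsubread, and deposited raw counts per gene, 1 table per library. The strand and multiple-mapping settings, and which library was in which sequencing pool, are not given in the sources used here. Of 27179 genes, 874 have no symbol and entered the tests by Entrez identifier.

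The test on counts was run with edgeR 4.0.16 in R 4.3.3 (TMM, filterByExpr, robust quasi-likelihood test, Benjamini-Hochberg adjustment, threshold 0.05). CPM use TMM library sizes, and correlations use log2 CPM with a prior count of 2. SE is the absolute log2 fold change over the root of F. Alternatives were DESeq2 1.42.0, limma 3.58.1 (voom), RLE and upper quartile scaling, other filters, ribosomal RNA genes left out or their share as a covariate, and each library left out. The fit was tested on simulated data. Spearman correlations between libraries were 0.960 to 0.985, with no duplicates, and the biological coefficient of variation was 0.252. Intervals cover the spread between libraries only.

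The members and gene lists were chosen with earlier results of these data known. Named genes were the 10 members, *Dnm1l*, *Thra*, the 6 genes of the clock lists with the lowest p, and the 3 tested genes most like and the 3 most unlike *Arntl* by Pearson's r. *Csnk1a1*, *Wdr5*, *Dbp*, *Rora*, *Hspa8*, *Rbm3*, *C1qa*, *C1qb*, *Cd68*, *Adgre1* and *Cd163* were named after their values were seen, and 1 gene first listed with the clock genes is not reported here. Promoters came from RefSeq (GRCm38.p6), and exon lengths and overlaps from GENCODE vM21, which is not the annotation of the counts.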

Additional observations from a re-analysis of the deposited data

How the results depend on the processing

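No member was called in any of the 15 alternatives, and the smallest adjusted p of a member was 0.0756 (edgeR, *Cry2* without library A). The number of genes called among all those tested was 2, and it was 94 in DESeq2 (which gave an adjusted p to 4018 genes and 5 of the members), 1 in limma voom, 8 with no filter on low counts, 1 with ribosomal RNA share added as covariate, 1796 at an unadjusted p under 0.05 and 1 to 7 with a library left out (7 without A, 1 without E or without F). Of the log2 fold changes, *Per1* turned to 0.00763 under upper quartile scaling and *Arntl* to 0.00114 with the covariate. *Atf1* turned to 0.0558 under upper quartile scaling, 0.00795 with at least 10 counts in every library, 0.00536 without ribosomal RNA genes and 0.0465 with the covariate, under which *Il11ra2*, *Asnsd1* and *Cog5* turned to -0.256, -0.00908 and -0.0343. With a library left out the ranges were -0.355 to 0.0929 (*Arntl*), -0.532 to 0.178 (*Per1*), -0.82 to 0.0365 (*Per2*), -0.237 to 0.0163 (*Nr1d2*), -0.346 to 0.0896 (*Amelx*), -0.166 to 0.0951 (*Atf1*), -0.264 to 0.609 (*Il11ra2*), -0.00604 to 0.0646 (*Asnsd1*) and -0.0252 to 0.0781 (*Cog5*), and r of *Arntl* with *Cry2* ran from -0.491 to 0.0104. The arm difference between the groups, -0.50, ran from -0.871 without A to -0.055 without C and was -0.177 against *Arntl* alone, an alternative chosen after seeing the data. The causes were not tested. Upper quartile scaling moved the median log2 fold change of all tested genes from 0.02 to 0.11. No paired analysis was possible because the sources used here name no pairs of control and miDrp1KO libraries. With 3 libraries a group, a fall as large as that of *Dnm1l* lies within the 95% intervals of *Per1*, *Per2* and *Cry2*. The interval of *Npas2*, -0.64 to 1.5, holds a rise of that size but not such a fall.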

Other observations

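Over the 6 libraries, the tested genes whose log2 CPM was most like that of *Arntl* were *Tnfrsf19* (r = 0.991), *Amelx* (r = 0.988, on 6 to 49 counts) and *Atf1* (r = 0.986). *Tnfrsf19* was at 29.6, 13.3 and 32.5 CPM in control and 13.2, 27.7 and 21.7 CPM in miDrp1KO, with its lowest values in C and A. The most unlike were *Cog5* (r = -0.991), *Il11ra2* and *Asnsd1* (both r = -0.988), each highest in C and A. These are the extremes among 16483 genes over 6 points that share library and depth, and they are given as a description.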
